A study of Rattus norvegicus with 5 samples.

Results

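The genes described here are 10 known targets of the glucocorticoid and mineralocorticoid receptors that lie outside the circadian clock, chosen by symbol: Tsc22d3, Klf9, Zbtb16, Dusp1, Mt2A, Ndrg2, Sult1a1, Lcn2, Cdkn1a and Edn1. The gene table holds 20339 genes, and 9 of the 10 symbols were matched to a row; Dusp1 was not analysed here. All 9 passed the filter on low counts. Each of the 5 sequenced libraries comes from the dissected cornea of a male Sprague-Dawley rat 6 months old. There were 3 wild-type rats and 2 transgenic P1 hMR rats, in which the human NR3C2 gene for the mineralocorticoid receptor is overexpressed. No hormone or drug treatment is named, and the labels do not say what P1 stands for, how many founder lines were used or at what time of day the rats died. The labels number the rats within a genotype and do not say whether litters or dissection days differed. The p-values set the difference between genotypes against the spread of libraries within a genotype, estimated with information shared across genes. If litters or days differed between the genotypes, their effects cannot be told apart from that of genotype.

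Both receptors are ligand-activated transcription factors of the nuclear receptor family. Corticosterone, the main glucocorticoid of rats, binds both of them, while aldosterone acts through the mineralocorticoid receptor, and the activated receptors bind the same palindromic DNA element. The genes induced include regulators that damp inflammation and growth (Tsc22d3, Klf9, Zbtb16, Cdkn1a), enzymes and binding proteins of defence against metals and small molecules (Mt2A, Sult1a1), an early aldosterone-induced gene of kidney epithelium (Ndrg2), and secreted proteins (Lcn2, Edn1). In the eye, glucocorticoids are given to limit corneal inflammation, and the same receptors act on the epithelium, stroma and endothelium of the cornea. The comparison asks whether such targets differ in level when the cornea carries extra mineralocorticoid receptor.

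The proximal promoters of these genes were looked up in RefSeq (build GRCr8), and 8 of the 9 genes were matched, with 11 start sites in all; 3 belong to Tsc22d3 and 2 to Ndrg2. The entry of Zbtb16 is missing from the promoter table. In the 250 bases before each start site, the full steroid response element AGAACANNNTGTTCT was in none of the 11, and it was in 0.012% of 33469 promoters of the same length. Its single arm AGAACA, which is part of the full element, was in 1 of the 11, that of Sult1a1, against 17.5% of all promoters. Metal response cores, through which zinc-bound MTF1 drives metallothionein genes, were in 1 of the 11, that of Mt2A, in both forms: TGCGCNC (11.8% of all promoters) and TGCACNC (10.3%). The E-box CACGTG of clock factors was also found there, 202 bases before the start, and in 5.59% of all promoters. Both strands were searched, and no match of the E-box or of a metal core shares bases with another. The 2 promoters with a steroid arm or a metal core are shown, 5′ to 3′ on the strand of the gene, with the matched bases in capitals. They are the minus strand of chr1:190706113-190706362 for Sult1a1 and of chr19:10838709-10838958 for Mt2A.
Sult1a1: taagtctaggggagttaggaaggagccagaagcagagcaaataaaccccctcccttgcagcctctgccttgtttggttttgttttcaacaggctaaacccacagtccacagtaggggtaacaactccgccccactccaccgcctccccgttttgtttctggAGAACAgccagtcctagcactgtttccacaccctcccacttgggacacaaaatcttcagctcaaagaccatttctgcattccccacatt
Mt2A: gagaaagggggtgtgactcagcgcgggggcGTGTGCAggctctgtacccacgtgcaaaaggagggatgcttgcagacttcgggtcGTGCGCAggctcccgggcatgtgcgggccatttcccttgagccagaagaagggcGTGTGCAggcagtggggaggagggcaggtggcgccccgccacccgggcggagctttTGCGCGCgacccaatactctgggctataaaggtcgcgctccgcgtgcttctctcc
In the first sequence the arm starts 89 bases before the start site. In the second the capitals start 220, 165, 111 and 55 bases before it, and the match at 55 is on the strand of the gene and the other 3 on the opposite strand. A match describes letters only, and the libraries hold no measurement of receptor binding.

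The libraries held 20874010 to 30449675 counts. Human NR3C2, the transgene, had 0 counts in each wild-type library and 1094 and 1146 counts in transgenic corneas 1 and 2, as the labels state. Defining markers of corneal epithelium (9 genes in the table), stroma (8) and endothelium (10) were read in every library, with none at 0. Summed epithelial markers ran from 118156 to 132335 CPM (counts scaled to the TMM library size) in wild-type corneas and were 136979 and 109797 CPM in transgenic corneas 1 and 2. Pigment-cell and iris markers, of which 9 of 9 tested were fitted higher in transgenic corneas, summed to 54.4, 13.6 and 40.4 CPM over wild-type corneas 1 to 3 and to 94.0 and 171 CPM over transgenic corneas 1 and 2. Among them Mlana was at 0 in wild-type cornea 2, and no other marker of this list was at 0 in any library. Stromal markers were fitted higher in transgenic corneas for 7 of 8 genes tested, endothelial markers for 8 of 10 and retinal markers for 6 of 7, while lens markers were lower for 11 of 11, and no gene of these lists passed the edgeR test. Summed stromal markers ran from 2453 to 2651 CPM in wild-type corneas and from 2999 to 3200 CPM in transgenic ones, endothelial markers from 1882 to 1973 and from 2070 to 2093 CPM, retinal markers from 7.14 to 24.2 and from 20.7 to 25.0 CPM, and lens markers from 54.0 to 205 and from 45.0 to 49.97 CPM. The lens genes Mip and Lim2 and the retinal gene Crx were at 0 in some libraries.

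None of the 9 genes was called different between genotypes. By edgeR's quasi-likelihood test, adjusted by Benjamini-Hochberg over all 13304 genes tested, 0 of 9 rose and 0 of 9 fell, where 0.00752% of all genes (NR3C2 alone) rose and 0.00% fell. At an unadjusted edgeR p under 0.05 the number was also 0 of 9, against 4.39% of all genes higher and 1.93% lower in transgenic corneas. By DESeq2 it was 2 of 9 (Klf9 and Sult1a1), against 812 of 16253 genes in either direction. By limma voom it was 1 of 9 (Klf9), against 927 of 13304 genes. Neither of these tools called a member after adjustment. The fitted log2 fold change was above 0 for 6 of the 9, against 48.2% of all genes, and its median was 0.31, against -0.01 over all genes. That median rested on single libraries: it was 0.09 without transgenic cornea 2, 0.46 without transgenic cornea 1 and 0.18 without wild-type cornea 1. In whole tissue, fewer cells of a type and less RNA per cell cannot be told apart. A missed threshold with 3 and 2 libraries does not show that levels were alike. The standard errors below give the precision of each fold change, not the smallest difference that the test could call.

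**Figure D1:**
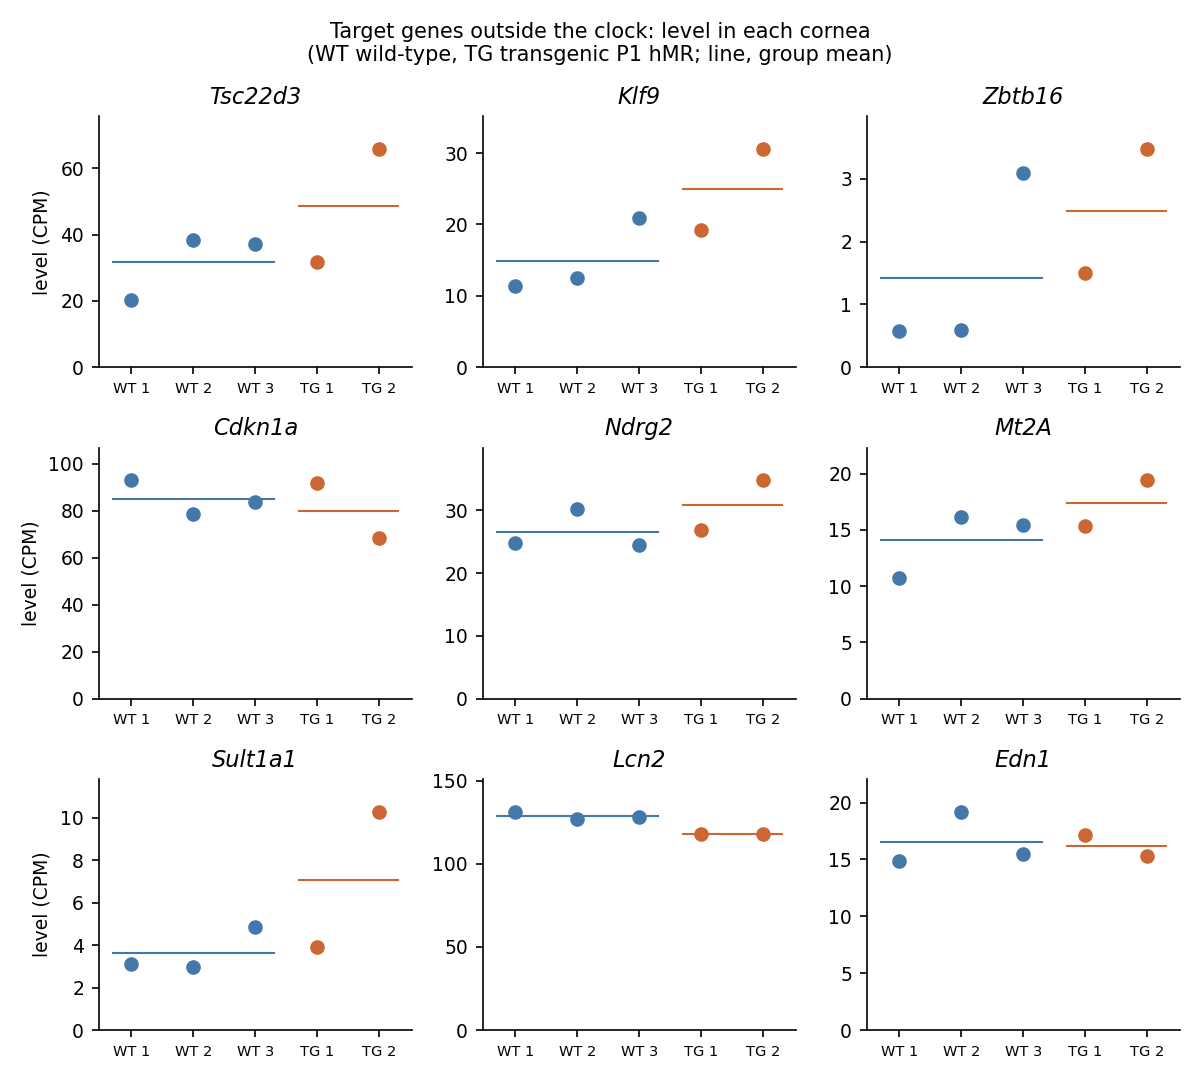
Level of each of the 9 genes (CPM, linear axis from 0) in wild-type corneas 1 to 3 and transgenic corneas 1 and 2, with a line at each group mean. Transgenic cornea 2 is the highest point for 6 genes, and only Lcn2 has both transgenic points below every wild-type point.

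Of the regulators of transcription and growth, Tsc22d3 encodes GILZ, a leucine zipper protein that glucocorticoids induce and that restrains NF-kB and AP-1. Its level was 20.2, 38.3 and 37.1 CPM across wild-type corneas 1 to 3, against 31.6 and 65.7 CPM across transgenic corneas 1 and 2. Transgenic cornea 1 lay inside the wild-type range and transgenic cornea 2 above it, so the groups overlapped. The log2 fold change was 0.62 ± 0.46 (SE; edgeR adjusted p = 0.874). Without transgenic cornea 2 it was -0.0040 ± 0.43, and without transgenic cornea 1 it was 1.05 ± 0.42.

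Klf9, a zinc-finger repressor induced by glucocorticoids and thyroid hormone, had 11.4, 12.5 and 20.9 CPM across wild-type corneas 1 to 3, against 19.2 and 30.6 CPM across transgenic corneas 1 and 2. Wild-type cornea 3 lay above transgenic cornea 1, which was the only overlap between the groups. The log2 fold change was 0.74 ± 0.33 (edgeR adjusted p = 0.820), and it kept its sign under each of the 10 alternatives run, between 0.37 without transgenic cornea 2 and 1.07 without wild-type cornea 3.

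Zbtb16, which encodes the repressor PLZF and is one of the most strongly glucocorticoid-induced genes in many human cells, was low. Counts were 16, 12 and 68 across wild-type corneas 1 to 3, against 39 and 109 across transgenic corneas 1 and 2, or 0.578, 0.587 and 3.10 CPM and 1.50 and 3.47 CPM. Wild-type cornea 3 and transgenic cornea 2 were the high libraries, one in each genotype. With 95% Poisson intervals, which cover counting error only, wild-type cornea 3 (2.40 to 3.93 CPM) overlapped transgenic cornea 2 (2.85 to 4.19 CPM) and lay apart from wild-type cornea 1 (0.330 to 0.938 CPM) and cornea 2 (0.303 to 1.03 CPM). The 5.36-fold spread inside the wild-type group was wider than the 1.75-fold ratio of the group means, and the log2 fold change was 0.82 ± 0.83 (edgeR adjusted p = 0.900). It was 2.10 ± 0.52 without wild-type cornea 3 (adjusted p = 0.257) and 0.09 ± 1.10 without transgenic cornea 2.

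Cdkn1a, the p21 inhibitor of cyclin-dependent kinases, had 93.0, 78.7 and 84.0 CPM across wild-type corneas, against 91.8 and 68.4 CPM across transgenic corneas 1 and 2. Here transgenic cornea 2 was the lowest library and transgenic cornea 1 lay within the wild-type range. The log2 fold change was -0.09 ± 0.14 (edgeR adjusted p = 0.932) and turned to 0.11 ± 0.14 without transgenic cornea 2.

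Among the remaining intracellular proteins, Sult1a1 had the widest gap between the transgenic corneas. This cytosolic sulfotransferase conjugates phenols and is known as glucocorticoid-inducible in rat liver. It had 3.11, 2.99 and 4.87 CPM across wild-type corneas 1 to 3, against 3.89 and 10.3 CPM across transgenic corneas 1 and 2. Transgenic cornea 1 lay within the wild-type range, and the 95% Poisson interval of transgenic cornea 2 (9.19 to 11.5 CPM) lay above that of every other library, the next of which reached 5.89 CPM. The log2 fold change was 0.96 ± 0.43 (edgeR adjusted p = 0.810), with 0.09 ± 0.38 without transgenic cornea 2 and 1.49 ± 0.32 (adjusted p = 0.0913) without transgenic cornea 1. Its expected counts were not whole (86.48, 61.21, 107.32, 100.96 and 323.06), as arises where reads are shared with similar sequences, so its level also rests on that allocation.

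Mt2A, a metallothionein that binds zinc and copper, had 10.8, 16.1 and 15.4 CPM across wild-type corneas 1 to 3, against 15.3 and 19.4 CPM across transgenic corneas 1 and 2. Wild-type cornea 1 was the low library and transgenic cornea 2 the high one, and the other 3 lay close together. The log2 fold change was 0.31 ± 0.19 (edgeR adjusted p = 0.855), with 0.13 without transgenic cornea 2 and 0.15 without wild-type cornea 1. Ndrg2, known as an aldosterone-induced gene of the collecting duct, had 24.8, 30.2 and 24.5 CPM across wild-type corneas, against 26.9 and 34.7 CPM across transgenic corneas 1 and 2. Wild-type cornea 2 lay above transgenic cornea 1, so the groups overlapped. The log2 fold change was 0.22 ± 0.15 (edgeR adjusted p = 0.860), with 0.02 without transgenic cornea 2 and 0.39 without transgenic cornea 1.

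The secreted proteins had the narrowest ranges of the 9 genes. Lcn2, the iron-siderophore carrier NGAL and a known mineralocorticoid receptor target in heart and vessels, had 131, 127 and 128 CPM across wild-type corneas, against 118 and 118 CPM across transgenic corneas 1 and 2. It was the 1 member of 9 whose groups did not overlap, in the lower direction, against 10.7% of all genes, and 0 of 9 had both transgenic corneas above all wild-type ones, against 12.0%. The difference was small, with a ratio of means of 0.915 and a log2 fold change of -0.13 ± 0.09 (edgeR adjusted p = 0.860). Edn1, the vasoconstrictor peptide endothelin-1, had 14.8, 19.2 and 15.5 CPM across wild-type corneas, against 17.2 and 15.3 CPM across transgenic corneas 1 and 2. Both transgenic values fell inside the wild-type range, with a log2 fold change of -0.02 ± 0.15 (edgeR adjusted p = 0.986) that turned to 0.10 without wild-type cornea 2 and to 0.06 without transgenic cornea 2.

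**Figure D2:**
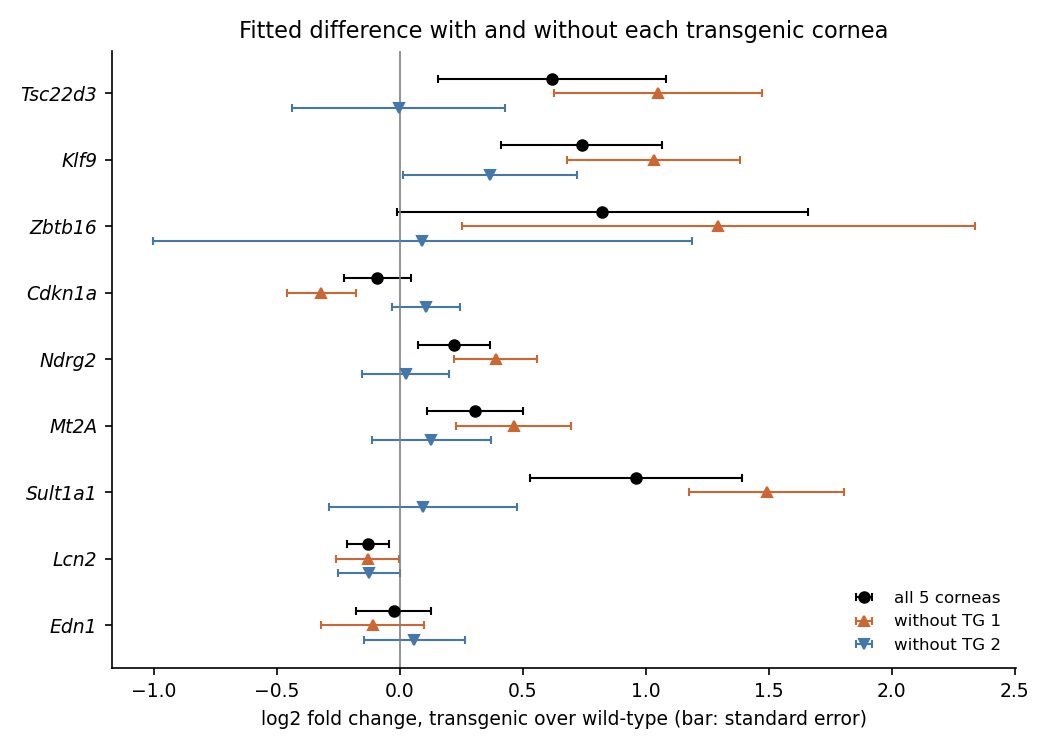
Fitted log2 fold change of transgenic over wild-type corneas for the 9 genes, with standard error bars, from all 5 corneas (circles) and without transgenic cornea 1 (triangles up) or 2 (triangles down). Without transgenic cornea 2 the values lie between -0.12 and 0.37, and those of Tsc22d3, Zbtb16, Sult1a1, Ndrg2 and Edn1 are within 0.10 of 0.

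For several members the gap between the 2 transgenic corneas was wider than that between the genotypes. Transgenic cornea 2 held the highest of the 5 values for 6 of the 9 genes (Tsc22d3, Klf9, Zbtb16, Mt2A, Ndrg2 and Sult1a1), while it was the highest library for 23.1% of all genes tested. The ratio of transgenic cornea 2 to cornea 1 was 2.64 for Sult1a1, 2.31 for Zbtb16 and 2.08 for Tsc22d3. Their ratios of the transgenic to the wild-type mean were 1.94, 1.75 and 1.53. For Klf9 it was the reverse, with 1.59 between the transgenic corneas and 1.66 between the genotype means. Between the transgenic corneas a ratio of at least 2 was reached by 3 of 9 members and by 3.05% of all genes, and one of at least 1.5 by 4 of 9 and by 7.73%. Ndrg2 and Mt2A followed at 1.29 and 1.263, Lcn2 was at 0.997, Edn1 at 0.891 and Cdkn1a at 0.745. The median ratio was 1.29 over the members and 1.00 over all genes. With 1 rat behind each library, this ratio has no replicate check.

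**Figure D3:**
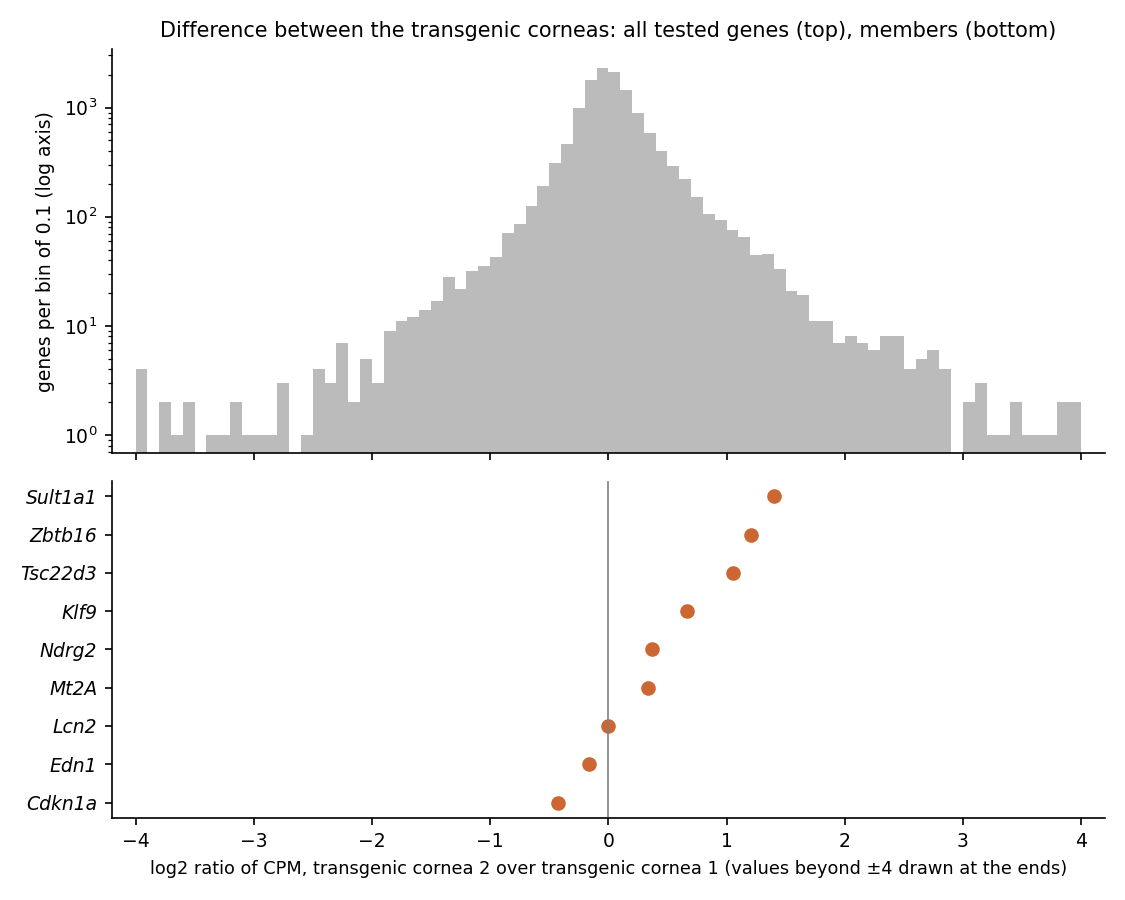
Ratio of the level in transgenic cornea 2 to that in transgenic cornea 1 on a log2 axis, as a histogram of all tested genes (top, log count axis) and as points for the 9 members (bottom). Sult1a1, Zbtb16 and Tsc22d3 sit above a ratio of 2, where 3.05% of all genes lie, and Cdkn1a is the lowest member.

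Wild-type corneas differed from each other as well. The highest wild-type value was 5.36 times the lowest for Zbtb16, 1.90 for Tsc22d3, 1.83 for Klf9, 1.63 for Sult1a1 and 1.50 for Mt2A, and it was 1.04 for Lcn2, 1.18 for Cdkn1a, 1.24 for Ndrg2 and 1.29 for Edn1. The median was 1.50 over the members and 1.22 over all genes. The range over all 5 libraries, on the scale of log2(CPM + 0.5), was 1.88 for Zbtb16, 1.68 for Tsc22d3, 1.63 for Sult1a1 and 1.38 for Klf9. Wider ranges were found in 1.37%, 1.89%, 2.10% and 3.46% of all genes, respectively. Lcn2 had a range of 0.16, and 92.7% of genes varied more.

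The members of wider range did not share one order of libraries. Tsc22d3 and Mt2A were lowest in wild-type cornea 1 and near each other in wild-type corneas 2 and 3, while Klf9 and Zbtb16 were low in wild-type corneas 1 and 2 and high in cornea 3, and so, less widely, was Sult1a1. Among the 36 pairs of members, likeness was taken as the root mean square difference of log2(CPM + 0.5), centred on each gene's mean, over the 5 libraries. Klf9 and Sult1a1 differed by 0.22 and Mt2A and Ndrg2 by 0.17. The smallest difference, 0.15, was between Lcn2 and Cdkn1a, whose own ranges were 0.16 and 0.44.

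The genes nearest in pattern were sought among 10108 genes with a mean of at least 5 CPM, for the 3 members of widest range. Genes picked as nearest among so many over 5 libraries are alike by that choice, so their likeness is a description and not a test. Nearest to Tsc22d3 were Nat8l, which makes N-acetylaspartate (difference 0.14), Krt13, a keratin of non-cornified stratified epithelia such as conjunctiva (0.15), and Nucb2, the precursor of nesfatin (0.22). Krt13 had 1608, 2591 and 2821 CPM across wild-type corneas 1 to 3, against 1986 and 3949 CPM across transgenic corneas 1 and 2. Its lowest and highest libraries were thus those of Tsc22d3. Nearest to Sult1a1 were Mlph, which links melanosomes to myosin (0.16), the member Klf9 (0.22) and Fads2l1 (0.23). Mlph had 6.54, 6.36 and 9.43 CPM across wild-type corneas, against 10.1 and 18.5 CPM across transgenic corneas 1 and 2. For Zbtb16, which lay below 5 CPM in each library, the nearest were AC126641.1 (0.33), LOC103690120 (0.35) and the kinase Camkk1 (0.35). Genes at its own level were not searched and its counts were low, so these wider differences do not mark a pattern of its own.

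**Figure D4:**
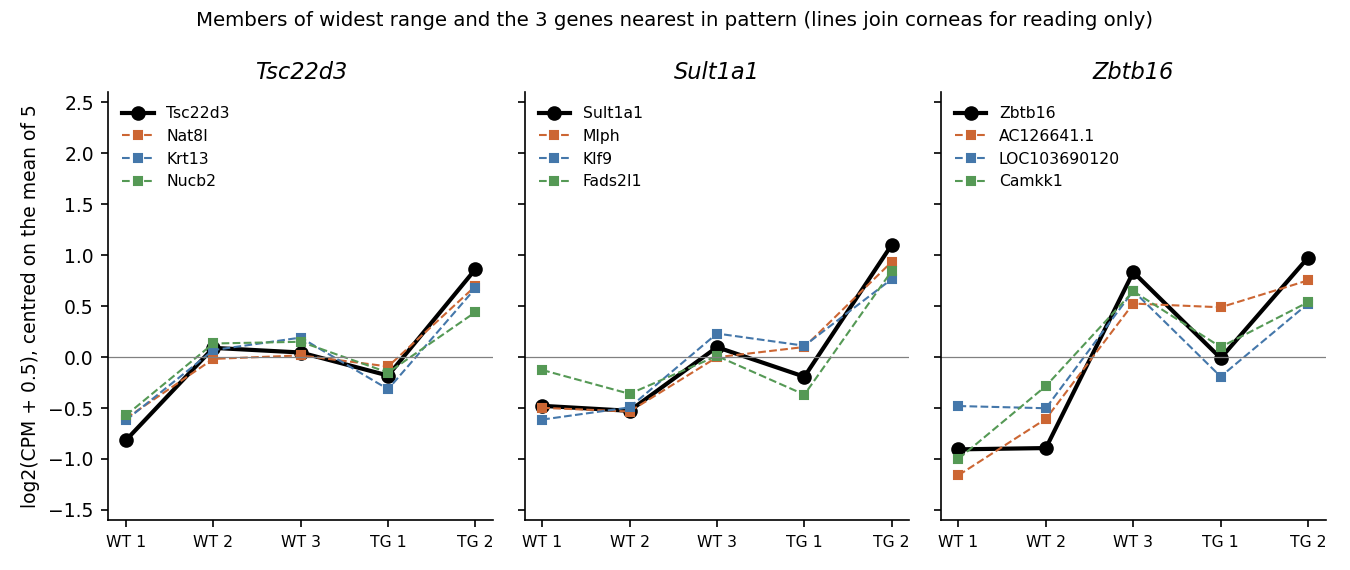
Centred log2(CPM + 0.5) over the 5 corneas for Tsc22d3, Sult1a1 and Zbtb16 (black) and the 3 genes nearest to each in pattern. The neighbours of Tsc22d3 follow it within 0.14 to 0.22, and those of Zbtb16 within 0.33 to 0.35; lines between corneas carry no order.

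The isoform table is another readout of the same libraries. Under the names of the members it lists 11 isoforms, of which 10 were tested and 1, of Ndrg2, was at 0 throughout. By edgeR 0 of 10 were called, as were 0.00% of all 27110 isoforms tested. An unadjusted edgeR p under 0.05 was found for 0 of 10, against 1080 of the 27110. Klf9, Zbtb16, Mt2A, Sult1a1 and Edn1 each had 1 isoform that held all counts of the gene. Ndrg2 was split between 2 isoforms. The first, ENSRNOT00000040540, had 12.6, 12.0 and 14.2 CPM across wild-type corneas 1 to 3, against 12.8 and 20.4 CPM across transgenic corneas 1 and 2. The second, ENSRNOT00000042055, had 10.9, 16.1 and 8.43 CPM and then 12.7 and 12.5 CPM. The high gene value of transgenic cornea 2 was thus read in the first isoform and that of wild-type cornea 2 in the second.

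The 1 isoform listed under Tsc22d3 held 48.1%, 69.0% and 61.1% of the gene's counts across wild-type corneas 1 to 3, against 53.8% and 64.4% in transgenic corneas 1 and 2. Its level was 9.19, 24.9 and 21.4 CPM and then 16.1 and 40.1 CPM, with the same lowest and highest library as the gene. Listed isoforms held 87.0% to 89.2% of the counts of Lcn2 and 74.0% to 80.2% of those of Cdkn1a. Estimates of single isoforms divide shared reads and are less certain than those of genes.

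No other target of the same hormones in the lists compared passed the edgeR test. Of 36 further glucocorticoid-responsive genes, 33 were tested: 0 rose, 0 fell, and 22 were fitted higher and 11 lower (median log2 fold change 0.12). Over all genes tested, 48.2% were fitted higher. At an unadjusted edgeR p under 0.05 the count was 1 higher and 0 lower, against 4.39% and 1.93% of all genes. Transgenic cornea 2 was the highest library for 12 of the 33, against 23.1% of all genes. Fam107a, an actin-binding stress-response gene, had the smallest p, with 6.72, 3.67 and 4.23 CPM across wild-type corneas, against 7.36 and 8.28 CPM across transgenic corneas 1 and 2 (0.67 ± 0.26, edgeR adjusted p = 0.741). It was followed by Rasd1, a dexamethasone-induced Ras protein, with 1.23, 1.17 and 1.27 CPM and then 1.77 and 2.20 CPM (0.70 ± 0.34, adjusted p = 0.820). These were the 2 of 33 genes in which each transgenic cornea lay above all wild-type ones, against 12.0% of all genes.

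Fkbp5, the receptor co-chaperone that serves as a standard glucocorticoid marker, had 68.8, 101 and 142 CPM across wild-type corneas 1 to 3, against 133 and 119 CPM across transgenic corneas 1 and 2. Its highest library was wild-type cornea 3, unlike that of Tsc22d3. Per1, a clock gene that glucocorticoids also induce, had 17.5, 73.6 and 49.2 CPM and then 41.1 and 96.7 CPM, with its lowest and highest values in the same libraries as Tsc22d3. Sgk1, the aldosterone-induced kinase, had 81.2, 79.4 and 90.5 CPM and then 88.4 and 92.7 CPM, a far narrower spread. Rat Nr3c1, the glucocorticoid receptor, stood at 135, 139 and 155 CPM and then 148 and 146 CPM.

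Of 24 aldosterone-responsive genes, 4 of which are also in the list above, 21 were tested: 0 rose, 0 fell, and 14 were fitted higher and 7 lower (median log2 fold change 0.09). At an unadjusted edgeR p under 0.05, 2 were higher and 1 lower. The shares over all genes were 48.2% fitted higher, and 4.39% higher and 1.93% lower at that p. The sodium pump subunit Atp1b1 had 64.3, 63.4 and 88.3 CPM across wild-type corneas, against 96.4 and 134 CPM across transgenic corneas 1 and 2 (0.68 ± 0.20, edgeR adjusted p = 0.639). The deubiquitinase Usp2 had 1.19, 1.37 and 0.774 CPM and then 1.47 and 3.25 CPM (1.09 ± 0.43, adjusted p = 0.741). Nedd4l, the ubiquitin ligase that removes sodium channels, had 88.8, 89.5 and 73.4 CPM and then 75.4 and 63.9 CPM (-0.27 ± 0.12, adjusted p = 0.786).

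**Figure D5:**
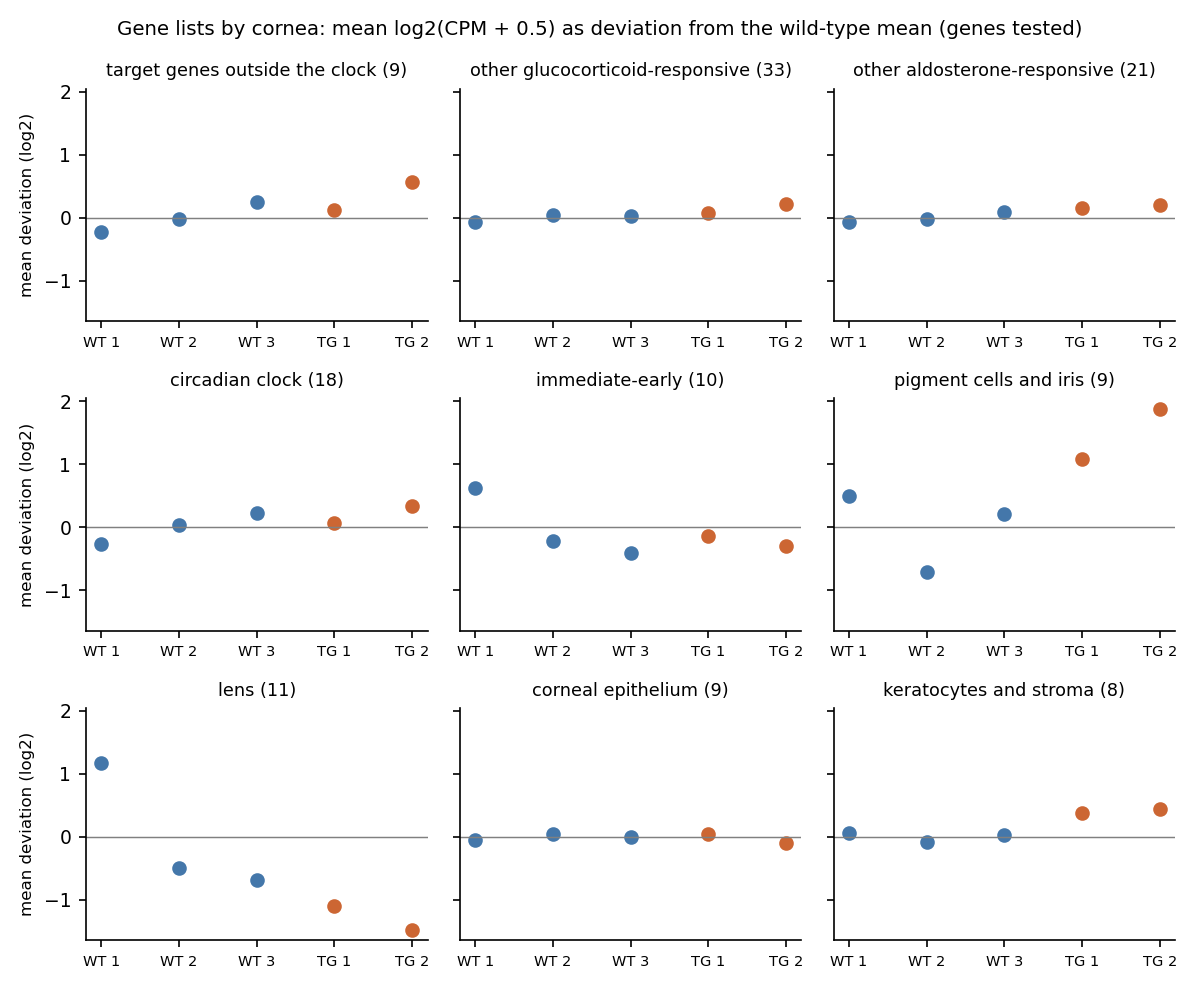
Mean log2(CPM + 0.5) of each gene list as a deviation from its wild-type mean, by cornea, with the number of genes tested in each title. The mean of the 9 members is 0.57 in transgenic cornea 2, pooling values from -0.31 for Cdkn1a to 1.41 for Sult1a1. In that cornea the mean of the other glucocorticoid-responsive genes is 0.21, of clock genes 0.34 and of pigment-cell markers 1.87.

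Close relatives and partners of the members were compared by family, and none passed the edgeR test. The counts fitted higher below stand beside 48.2% of all genes tested. In the TSC22 family, Tsc22d1 had a log2 fold change of 0.05 ± 0.10 and Tsc22d2 of -0.11 ± 0.17, and they stood at 108 and 24.2 CPM in transgenic cornea 2 against 109 and 26.1 CPM in cornea 1. Of the other 11 Kruppel-like factors tested, 7 were fitted higher and 4 lower; the smallest p-values were those of Klf7 (0.46 ± 0.24) and Klf12 (0.63 ± 0.35), while Klf5, a factor of the corneal epithelium, had 0.12 ± 0.10. Of 7 MAP kinase phosphatases, 1 was fitted higher and 6 lower, led by Dusp5 (-0.33 ± 0.19) and Dusp7 (-0.15 ± 0.10). Mt1, the sister metallothionein of Mt2A, was read at 0.650 to 1.32 CPM across the libraries, and the zinc exporter Slc30a1 had a log2 fold change of -0.03 ± 0.11.

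Among the other cytosolic sulfotransferases, 2 of 5 tested were fitted higher and 3 lower. Sult1c3 had 0.181, 0.0979 and 0.683 CPM across wild-type corneas, against 0.771 and 1.62 CPM across transgenic corneas 1 and 2 (1.91 ± 0.71, edgeR adjusted p = 0.731), again highest in transgenic cornea 2. Sult2b1, which sulfates cholesterol in epithelia, had -0.11 ± 0.13. In the NDRG family Ndrg1 had 0.12 ± 0.13 and Ndrg3 0.09 ± 0.15. Beside Cdkn1a, 9 of 16 further CDK inhibitors and p53 targets were fitted higher and 7 lower, with Cdkn1b (0.29 ± 0.10, adjusted p = 0.664) and Cdkn1c (0.25 ± 0.16) of smallest p.

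Of 4 partners of Lcn2 tested, 3 were fitted higher and 1 lower. The lipocalin and endocytosis receptors Lrp1 and Lrp2 had log2 fold changes of 0.41 ± 0.12 (edgeR adjusted p = 0.531) and 0.43 ± 0.16 (adjusted p = 0.703), and Slc22a17, a receptor for Lcn2, had 0.17 ± 0.11. Mmp9, the protease that Lcn2 binds, was low, at 1.95, 0.881 and 0.182 CPM across wild-type corneas, against 0.231 and 0.191 CPM across transgenic corneas 1 and 2. Its log2 fold change was -2.26 ± 0.92 (edgeR adjusted p = 0.774), and 1 wild-type library lay below both transgenic ones. In the endothelin system 5 of 6 tested relatives of Edn1 were fitted higher. The receptor Ednrb had 71.7, 69.3 and 64.9 CPM across wild-type corneas, against 76.0 and 83.9 CPM across transgenic corneas 1 and 2 (0.22 ± 0.09, adjusted p = 0.777), the receptor Ednra had 0.47 ± 0.28, and the converting enzyme Ece2 had 1.00 ± 0.38 (adjusted p = 0.731) at 1.81 CPM or less.

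Other gene groups also differed between the libraries in which the members differed, and their part in the members' values was not tested. The mean deviation of the members was -0.23, -0.02 and 0.25 across wild-type corneas 1 to 3, against 0.12 and 0.57 across transgenic corneas 1 and 2. That of 18 clock genes was -0.27, 0.03 and 0.23 and then 0.06 and 0.34, the same order of libraries. This clock mean pools 12 genes fitted higher and 6 fitted lower in transgenic corneas, which partly cancel. Arntl, one of the lower ones, ran in the reverse order, at 45.4, 29.6 and 14.1 CPM and then 21.0 and 8.15 CPM. The mean deviation of 10 immediate-early genes, which encode rapid-response transcription factors, was 0.62, -0.21 and -0.41 and then -0.13 and -0.30. Pigment-cell and iris markers stood at 0.50, -0.71 and 0.21 and then at 1.09 and 1.87. Their mean was highest in transgenic cornea 2, like the mean of the members, but lowest in wild-type cornea 2, not 1. Of the members themselves, 6 of 9 were highest in transgenic cornea 2. Lens markers stood at 1.17, -0.49 and -0.69 and then at -1.10 and -1.47, and retinal markers at 0.70, -0.67 and -0.03 and then at 0.79 and 1.02. Stromal markers (0.05, -0.08 and 0.02, then 0.38 and 0.44) and endothelial markers (-0.02, -0.00 and 0.02, then 0.24 and 0.29) were higher in both transgenic corneas than in any wild-type one, with a narrower gap between the transgenic corneas than the members had. The mean of the epithelial markers stood between -0.10 and 0.05 in all 5 libraries, but it pools genes that moved in opposite directions. Krt14 had 1281 and 1973 CPM in transgenic corneas 1 and 2, while Krt12 had 45506 and 32247 CPM. The median ratio of transgenic cornea 2 to cornea 1 was 0.86 over the 9 epithelial markers.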

How the data were processed

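Whole corneas of 3 wild-type and 2 transgenic P1 hMR rats were sequenced, with 1 library each. The authors deposited expected counts per gene and per isoform, which per the file values are unnormalized estimated counts. The submitters' processing notes name rat build rn6 and, without saying what each tool did, STAR 2.5.3a, RSEM 1.2.28, edgeR 3.28.0, DESeq2 1.26.0, fastp and FastQC. Strandedness of the libraries is not stated, and antisense reads cannot be told apart.

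Expected counts were rounded. Genes passing filterByExpr (minimum count 10) were normalized by TMM and tested with edgeR 4.0.16 in R 4.3.3 (robust quasi-likelihood F test, two-sided, Benjamini-Hochberg over all genes tested, threshold 0.05); isoforms likewise. DESeq2 1.42.0 and limma 3.58.1 (voom) served as alternatives. SE is the log2 fold change divided by the square root of F. Levels are not scaled for length and are compared only between libraries. The procedure was tested on simulated data, with 50 genes drawn at random changed at each fold. It recovered 15 of 50 at 1.5-fold, 41 at 2-fold, 40 at 3-fold and 47 at 4-fold. Groups and replicate numbers come from the titles. The members and gene lists were chosen with earlier results of these data known. Named genes are all members, their 3 nearest genes in pattern for the 3 of widest range, the 2 of smallest p per list, and fixed paralogues and partners. Mmp9 was named outside these rules, and Klf5 and Nedd4l were added after their values were seen. Isoforms holding at least 5% of a gene's counts are described.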

Additional observations from a re-analysis of the deposited data

How the results depend on the processing

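No member passed the threshold in any of the 10 alternatives run (DESeq2 size factors, no low-count filter, replicate block, DESeq2, limma voom, and each library left out), and 6 or 7 of the 9 were fitted higher in each. Of 90 member values under these alternatives, 86 kept their direction and 4 turned: Tsc22d3 (-0.0040 without transgenic cornea 2), Cdkn1a (0.11 without transgenic cornea 2) and Edn1 (0.10 without wild-type cornea 2, 0.06 without transgenic cornea 2). With single libraries left out these genes ran from -0.0040 to 1.05, from -0.32 to 0.11 and from -0.11 to 0.10. The number of genes called over the whole table was 1, and 2 with no low-count filter, 57 by DESeq2, 16 with the replicate block and 2 to 36 with a library left out; where a transgenic cornea was left out, the lone one was assumed to vary like the wild-type corneas. With no wild-type and transgenic library tied by the labels beyond a number, the replicate block rests on 2 shared numbers. Same-numbered deviations correlated across genes at 0.00 and -0.11. Under the block 5 members had an unadjusted edgeR p under 0.05, as had 1370 of 13304 genes, and none passed. Tsc22d3 had 0.72 ± 0.12 (edgeR adjusted p = 0.0902) and Klf9 1.02 ± 0.17 (edgeR adjusted p = 0.104). Without wild-type cornea 3, 3 members and 1441 of 13224 genes had such an unadjusted p. No such count is given for the fits with a lone transgenic cornea, so these counts do not cover every alternative. No isoform was called under any of the 8 alternatives run for isoforms. Depth limits Zbtb16, with 12 to 109 counts, and Sult1a1, with 61 to 323 rounded counts.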
